A study of Mus musculus with 9 samples.

Results

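Among 13607 regions that the authors listed with more H3K27me3 in WENRC than in RANKL cultures of mouse duodenal mini-guts, 3261 lay in intergenic sequence of chromosomes 1 to 19, more than 5 kb and at most 50 kb from the nearest transcription start site. They were chosen by these rules alone, from the annotation column and the distance column of the WENRC table. They made up part of 7363 intergenic regions on those chromosomes, of which 3559 lay beyond 50 kb. All 9 samples came from the duodenum of mice, and per the labels the RANKL cultures held intestinal M cells, the WENRC cultures intestinal stem cells and the ENRI cultures enterocytes. The labels use these culture names without spelling them out, and strain, age and genotype are not given in the sources used here. H3K27me3 was measured by ChIP-seq (sequencing of DNA bound to a precipitated protein) in 1 WENRC library with 36.3 M tags and 2 RANKL libraries that the authors pooled to 32.7 M tags, so the mark has no replicate check. Nascent RNA was measured by GRO-seq, a run-on assay that sequences the RNA extended by polymerases already engaged in isolated nuclei, in 2 libraries each of RANKL, WENRC and ENRI, and the depth of these libraries is unknown. ENRI has no H3K27me3 library here.

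H3K27me3 is laid down by the Polycomb complex PRC2 through its catalytic subunit Ezh2 and is known for keeping developmental genes silent, and Kdm6a and Kdm6b remove it. Broad stretches of the mark often cover the flanks of silent genes as well as their start sites. M cells are the antigen-sampling cells of the epithelium over gut lymphoid follicles, and the cytokine RANKL drives their formation through its receptor Tnfrsf11a and the NF-kB pathway. Intestinal stem cells at the crypt base depend on Wnt signals and carry the receptor Lgr5.

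Marker lists in GRO-seq were read against the labelled cell types. Of 15 M cell markers, 12 were higher in RANKL than in WENRC and 0 lower by limma at a false discovery rate (FDR) under 0.05. Among these 12, Sox8 passed the filter on low values through the RANKL libraries alone, so its call is not support. Markers without a region were not checked for this. Of 16 stem cell markers, 12 were higher in WENRC than in ENRI and 0 lower, while between RANKL and WENRC 2 were higher and 2 lower. Of 16 enterocyte markers, 14 were lower in WENRC than in ENRI, and between RANKL and WENRC 6 were higher and 1 lower in RANKL. Of 8 goblet and 7 Paneth markers, 4 and 3 were higher in RANKL than in WENRC and 0 lower, so the RANKL cultures differed from WENRC in more than M cell genes. Of 9 tested enteroendocrine and 6 tested tuft markers, 2 and 2 were higher and 0 lower. The tuft calls include Gfi1b, which was tested through RANKL and whose call is not support. Over all tested genes, 8.53% were higher and 3.62% lower in RANKL than in WENRC. In WENRC against ENRI 4.85% were higher and 9.74% lower. The log2 values of the goblet markers, added up, came to 68.6 and 67.7 in RANKL and to 56.1 and 53.1 in WENRC. These are sums of logarithms, so their ratio is not a fold. The median log2 change of the goblet markers from WENRC to RANKL was 1.61. For connective tissue and immune cells, 5 of 11 markers passed the filter on low values and 1 was higher in RANKL. The summed log2 values of those 11 markers were 39.0 in both RANKL libraries, 34.9 and 37.0 in WENRC and 34.9 and 37.9 in ENRI, with none listed at 0. The part of such cells in the results below was not tested, and in these bulk samples fewer cells of a type and less RNA per cell cannot be told apart.

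The genes with most regions included a microRNA gene, Mir148a, which had 11 of them, next to Gm6559 with 13. Its 2 mature RNAs are shown with the seed, bases 2 to 8, in capitals, because no other microRNA gene had as many regions. They are followed by the other mature mouse miRNAs in RefSeq (GRCm38.p6) that share the seed of the 3p arm, and by the arms of Mir17, which had 3 of the regions.
mmu-miR-148a-3p: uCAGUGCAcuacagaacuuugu
mmu-miR-148a-5p: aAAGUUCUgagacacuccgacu
mmu-miR-148b-3p: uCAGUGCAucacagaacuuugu
mmu-miR-152-3p: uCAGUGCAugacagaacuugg
mmu-miR-17-5p: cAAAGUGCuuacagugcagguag
mmu-miR-17-3p: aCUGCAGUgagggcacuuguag
Mir148b and Mir152 were not among the nearest genes of the regions. In all, 49 microRNA or microRNA host genes were nearest to 75 of the regions, 13 of them to 2 or more, and 38 had a mature sequence in the table. Only 4 of the 49 reached the filter on low values in GRO-seq, so transcription of the others could not be compared. The sequences of the intergenic regions themselves are not shown, since no genome of the files' build, mm9, was used here.

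Most of the 3261 regions were small and held few tags. WENRC had 13.5 to 239.5 tags per region, with a median of 20.7 and quartiles of 18.9 and 25.2, after the authors scaled its tags to the RANKL depth. RANKL had 0.5 to 75 tags in the same regions, with a median of 6 and quartiles of 5 and 8. These are the values that chose the regions, so they are a description and not a test. The authors' fold ran from 2.0 to 39.61, with a median of 3.3. It was at least 4 in 826 regions (25.33%), at least 8 in 93 and under 3 in 900. Folds were highest where RANKL had almost no tags: 266 regions held 1 to 3 RANKL tags and 3 held none, which the table lists as 0.5. A length of exactly 500 bp, the shortest in the table, was given for 2523 regions (77.37%), and 138 regions spanned 1000 bp or more. Together they covered 1.9 Mb. The WENRC-higher intergenic regions beyond 50 kb were alike in size, 79.24% at 500 bp with a median fold of 3.45, and WENRC-higher intron regions had a median fold of 3.38. Intergenic regions with more H3K27me3 in RANKL at 5 to 50 kb were longer, 55.37% at 500 bp, with a median fold of 2.91 and a median of 46.0 tags per kb in the higher culture against 39.6 here. Each table was called on its own, so these lengths and folds also depend on what each call could find.

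**Figure D1:**
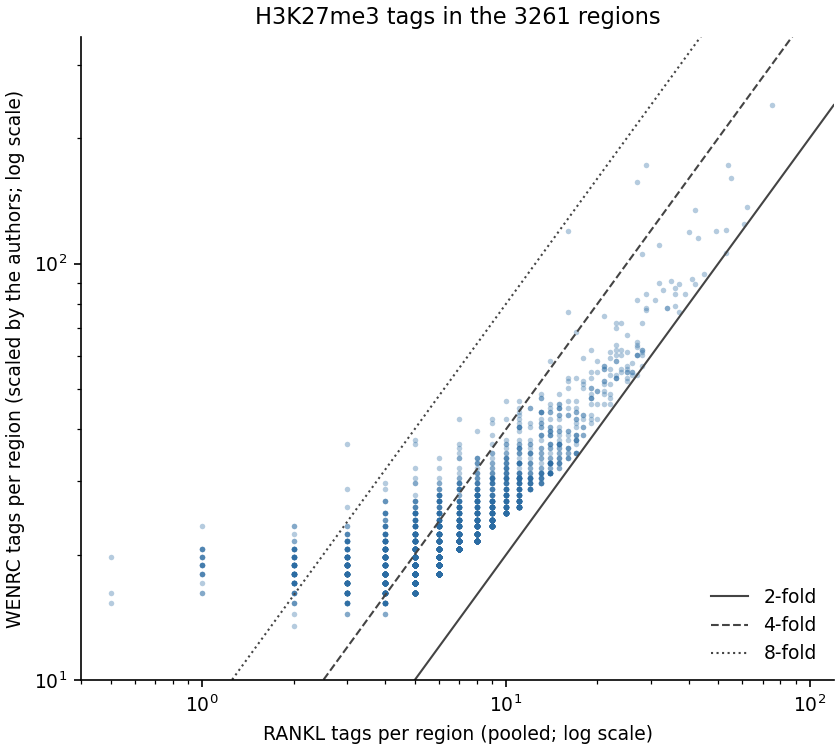
H3K27me3 tags of each region in WENRC (vertical axis, scaled by the authors, log scale) against RANKL (horizontal axis, 2 pooled libraries, log scale), with lines for folds of 2, 4 and 8. Each point is 1 of the 3261 regions; all lie on or above the 2-fold line by construction, and the high folds sit at the left, where RANKL had few tags.

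The highest folds rested on single RANKL tags. Near Sod1, which encodes a superoxide dismutase, the region chr16:90207743-90208385 (mm9, 12.9 kb upstream) had 23.4 WENRC tags and 1 RANKL tag, a fold of 23.41 whose exact 95% interval runs from 3.84 to 959.3 and covers counting error only. Regions near Foxa2, a forkhead factor of endoderm, and Bcl10, an adaptor of NF-kB signalling, each had 20.7 tags against 1, with an interval from 3.36 to 852.7. The same values held for regions near Pmp2 and Mir6420, and a region near Zbtb18 had 19.8 against 1 with an interval from 3.2 to 817.2. In the 3 regions without a RANKL tag, near Mast4, Stk39 and Gm20756, the WENRC tags were 5.1, 5.4 and 6.6 times a limit of 3 RANKL tags per region. These ratios leave out the counting error of the WENRC tags, so they are not lower bounds of the fold. Even at these extremes the fold is therefore known only within a wide range.

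More tags lay behind the longer regions. The region with most WENRC tags, also the longest, was chr2:94322728-94327868 (5140 bp), 47.0 kb upstream of Api5, an inhibitor of apoptosis, with 239.5 WENRC and 75 RANKL tags and a fold of 3.19. Next by WENRC tags were a region of 3238 bp 14.3 kb upstream of Depdc1a with 171.9 against 29 tags (fold 5.93), and a region of 3664 bp 45.2 kb downstream of the Lpl start site, with 171.9 against 54 tags (fold 3.18). A region of 3656 bp near Lrig3 had 160.2 against 55 tags, a second one near Depdc1a 156.6 against 27, and one near Raly 136.8 against 62. These long regions had folds from 2.21 to 5.93. At the edges of the distance rule, the region just inside 5 kb (5020 bp, D630029K05Rik) had 15.3 against 4 tags and the one just outside (4998 bp, Kcna4) 21.6 against 6. At 50 kb the values were 17.1 against 5 just inside (49972 bp, Ccdc39) and 22.5 against 3 just outside (50058 bp, A730082K24Rik).

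Regions lay upstream of the nearest start site more often than downstream of it, 2339 of 3261 (71.73%, Wilson 95% interval 70.16 to 73.25). A region downstream of a start site counts as intergenic only past the end of the gene, and the upstream share was 82.64% among the 628 regions within 10 kb, 76.63% from 10 to 20 kb, 71.0% from 20 to 30 kb and 61.02% among the 431 beyond 40 kb. Intergenic regions of the opposite direction, with more H3K27me3 in RANKL, numbered 7684 in the same distance range, and 68.64% of them (67.59 to 69.66) lay upstream. The median distance was 21426 bp in the WENRC-higher and 19411 bp in the RANKL-higher regions. At the centre of the WENRC-higher regions no repeat was annotated in 60.44%, an LTR element in 13.09%, a LINE in 11.28% and a SINE in 10.3%, against 66.62% without a repeat, 11.28% LTR and 6.963% LINE in the RANKL-higher regions. Density over chromosomes ran from 0.946 regions per Mb on chromosome 16 to 1.73 per Mb on chromosome 9.

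**Figure D2:**
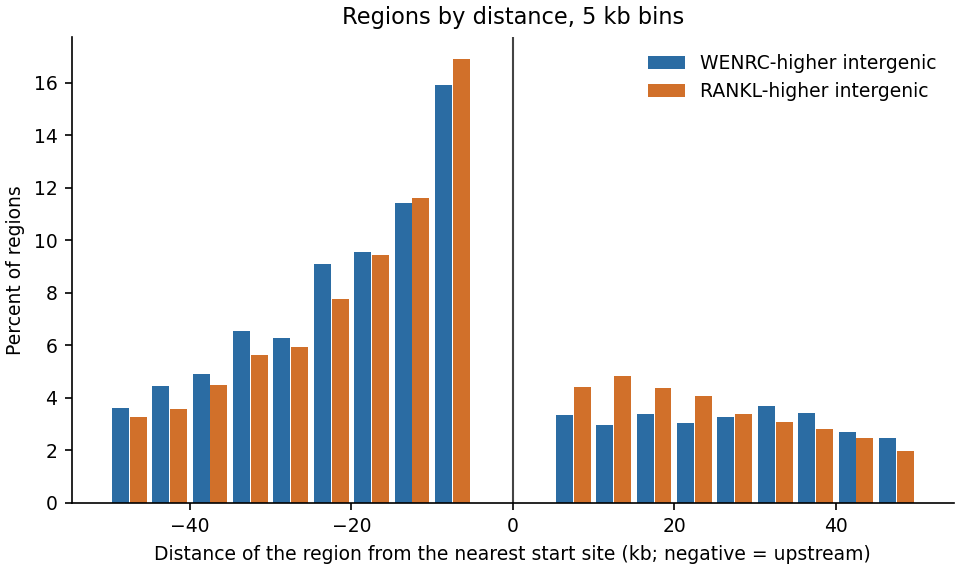
Share of regions (vertical axis, percent) by signed distance from the nearest start site (horizontal axis, kb, negative is upstream, 5 kb bins) for 3261 WENRC-higher and 7684 RANKL-higher intergenic regions; no region within 5 kb belongs to either set by the rule. Both sets are densest just upstream, and the upstream share falls with distance.

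Neighbouring regions formed runs. Joined where they lay within 10 kb of each other, the 3261 regions made 2658 groups, of which 422 had 2 or more regions and held 1025 of them (31.43%), and 100 had 3 or more. The largest group held 12 regions upstream of Gm6559, a non-coding gene, in chr6:51279738-51316278, with 387.0 against 118 tags. With the other regions of Gm6559 and those of its neighbour Mir148a, joined here after the values were seen, 24 of the regions lay between 51175008 and 51356035 of chromosome 6 (181.0 kb) and covered 20.9 kb with 820.8 WENRC and 241 RANKL tags, a ratio of 3.41. The stretch held 27 WENRC-higher regions of any kind and 0 RANKL-higher ones. At Mir148a itself 11 regions lay on both sides, the closest 6.1 kb upstream with 76.5 against 16 tags and the farthest 44.6 kb downstream with 18.9 against 4.

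Other runs lay on 1 side of their gene, which the choice of regions and the joining within 10 kb all but fix. No region within 5 kb of a start site belongs to the set, so a run can hardly cross one. Upstream of Slc39a8, a zinc and manganese transporter, 11 regions between chr3:135442528-135481559 held 456.3 WENRC and 170 RANKL tags, a ratio of 2.68. Downstream of Edn2, which encodes an endothelin peptide, 10 regions in chr4:119844630-119882300 held 426.6 against 132 tags. The 8 regions upstream of 1810046K07Rik had 327.6 against 109 tags and 7 upstream of Lrig3 had 375.3 against 129. Groups of 6 regions, described here after their values were seen, lay near Depdc1a, Lpl and Gtf3c3. Those upstream of Depdc1a (chr3:159125441-159150650) had 532.8 against 88 tags, a ratio of 6.05, and single folds from 2.96 to 12.3. The regions near Lpl, the secreted lipase of triglyceride uptake, held 331.2 against 101 and those near Gtf3c3 152.1 against 57, a ratio of 2.67. The longest region near Lpl alone held 171.9 of those WENRC tags. That every region of a run shows a WENRC excess follows from the rule.

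**Figure D3:**
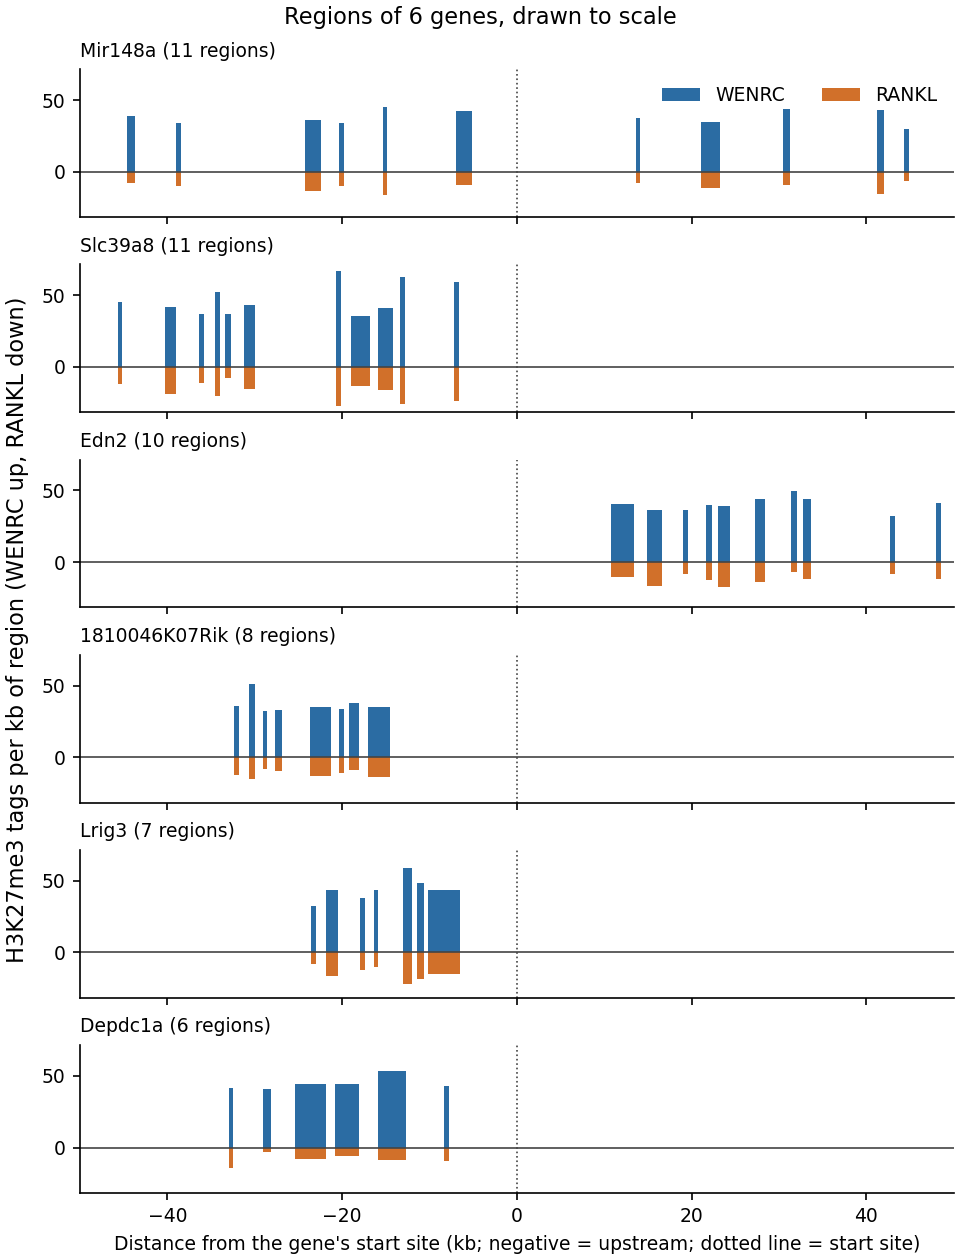
H3K27me3 tags per kb of region (vertical axis, WENRC upward in blue, RANKL downward in orange) against distance from the start site of the nearest gene (horizontal axis, kb, negative is upstream) for 6 genes with 6 to 11 regions; bar width is region length to scale. WENRC bars exceed RANKL bars in every region, as the rule requires. The regions of Mir148a flank the gene, while those of the other genes drawn lie on 1 side. Mir148a is no exception in this, since genes that are not drawn, such as Foxf2 and Zbtb18 with 6 regions each, also had regions on both sides.

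The regions had 2328 nearest genes: 1727 genes with 1 region, 404 with 2, 169 with 3 or 4 and 28 with 5 or more. Protein-coding genes were nearest to 80.59% of the regions and non-coding RNA genes to 17.91%. Among developmental transcription factor genes (231 genes of the Hox, Pax, Gata, Tbx, Lhx, Nkx, Sox, Fox, Dlx, Irx, Pou, Klf and related families), 58 of the 221 on chromosomes 1 to 19 (26.2%) were nearest to at least 1 region, against 2273 of 23354 genes of any kind (9.73%). They included 13 Fox and 7 Sox genes, 0.5584% and 0.3007% of the nearest genes, where all listed genes held 0.1927% and 0.08564%. Genes nearest to RANKL-higher intergenic regions at the same distance held 0.6999% and 0.213%, and those nearest to WENRC-higher regions beyond 50 kb 0.5341% and 0.3561%. Olfactory receptor genes, which lie in dense silent clusters, made up 1.503% of the nearest genes and 4.791% of all, and vomeronasal receptors 0.4296% and 1.43%. These shares are descriptions without a test, since distance to the nearest gene depends on how densely genes lie.

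Regions of the opposite direction were counted around each region. A RANKL-higher region was found within 10 kb of 902 of the 3261 regions (27.66%) and within 50 kb of 2101 (64.43%), with a median gap of 27988 bp, with no share for other positions set beside these. That 7 overlapped one by at least 1 bp, and 0 by 50% of the shorter region, follows from both tables asking for at least 2-fold in opposite directions from the same libraries. Of the nearest genes in the GRO-seq table, 1201 of 2273 (52.8%) also had a RANKL-higher region within 50 kb of the start site, and for 283 (12.5%) a further WENRC-higher one lay within 5 kb. Over all 23354 listed genes of these chromosomes the shares were 28.8% and 5.32%. For the 58 developmental transcription factor genes the counts were 45 (77.6%) and 11 (19%), against 63.8% and 9.05% of all 221 genes of that list. Foxf2, with 6 of the regions, had 5 RANKL-higher regions within 50 kb, and Pax2, with 1, had 17.

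GRO-seq was not used in choosing the regions and shows how the nearest genes were transcribed. All GRO-seq values given here were normalized by the authors and are in log2 units of a transform that is not named. Its shape is that of a regularized logarithm, which draws the libraries of a gene with few reads toward each other and so understates its changes. Of the 2273 nearest genes with a value, 1476 (64.9%) passed the filter of at least 2 libraries at log2 of 10 or above, and 134 were listed at 0 in all libraries. Higher in RANKL than in WENRC were 169 of the 1476 (11.4%), where limma called 8.53% of all 16563 tested genes (Benjamini-Hochberg FDR under 0.05 over all of them). Lower in RANKL were 54 (3.66%), where 3.62% of all tested genes were. The median log2 change was 0.03 over the nearest genes and -0.01 over all tested genes. So the share of lower genes was near the background and the share of higher genes somewhat above it. Another scaling of the libraries moved this split: with quantile normalization 154 were higher and 90 lower (10.4% and 6.1%, all genes 7.7% and 5.41%), and with libraries recentred on upper quartiles 152 and 105 (10.3% and 7.11%, all genes 7.52% and 6.59%), a recentring that shifted the median of all genes to -0.12. Of 6 genes that passed the filter through the RANKL libraries alone, 4 were called higher. Not counted there are genes such as Gfi1b and Lpl, in which only WENRC 2 reached the filter value beside RANKL. Of the 1476, 242 overlap another gene, whose reads cannot be separated since strand handling is not stated. Among the genes described below, these include Lgr5, Nfkb2, Smpd3, Klf9, Slc39a8 and 4930474M22Rik.

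The share of genes called higher varied with how the regions lay. It was 57 of 345 (16.5%) where the closest region lay within 10 kb, 52 of 447 (11.6%) from 10 to 20 kb, 30 of 298 (10.1%) from 20 to 30 kb, 20 of 237 (8.44%) from 30 to 40 kb and 10 of 149 (6.71%) beyond that. Genes that carried WENRC-higher H3K27me3 less than 5 kb from the start as well stood at 39 of 175 (22.3%), and the rest at 130 of 1301 (9.99%). Among genes of any kind with such a region near the start, with or without one of the 3261, 158 of 780 (20.3%) were higher, and the difference between these shares was not tested. Without a RANKL-higher region within 50 kb, 101 of 743 (13.6%) were higher and 16 (2.15%) lower. With such a region, 68 of 733 (9.28%) were higher and 38 (5.18%) lower. This split moved with the scaling too. With quantile normalization the shares higher and lower were 12.1% and 4.71% without such a region, and 8.73% and 7.5% with it. With libraries recentred on upper quartiles they were 12.2% and 4.98% without it, and 8.32% and 9.28% with it. In the main fit, the share higher was 11.9% for regions upstream only and 7.6% for regions downstream only. It was 7.61% for genes whose largest fold was under 3 and 17.9% (12 of 67, with 0 lower) for a fold of 8 or more. Genes nearest to RANKL-higher intergenic regions at the same distance had 7.72% higher and 4.84% lower, genes nearest to WENRC-higher intergenic regions beyond 50 kb 8.79% and 4.71%, and genes nearest to WENRC-higher intron regions 10.5% and 2.52%. The differences between these shares were not tested.

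**Figure D4:**
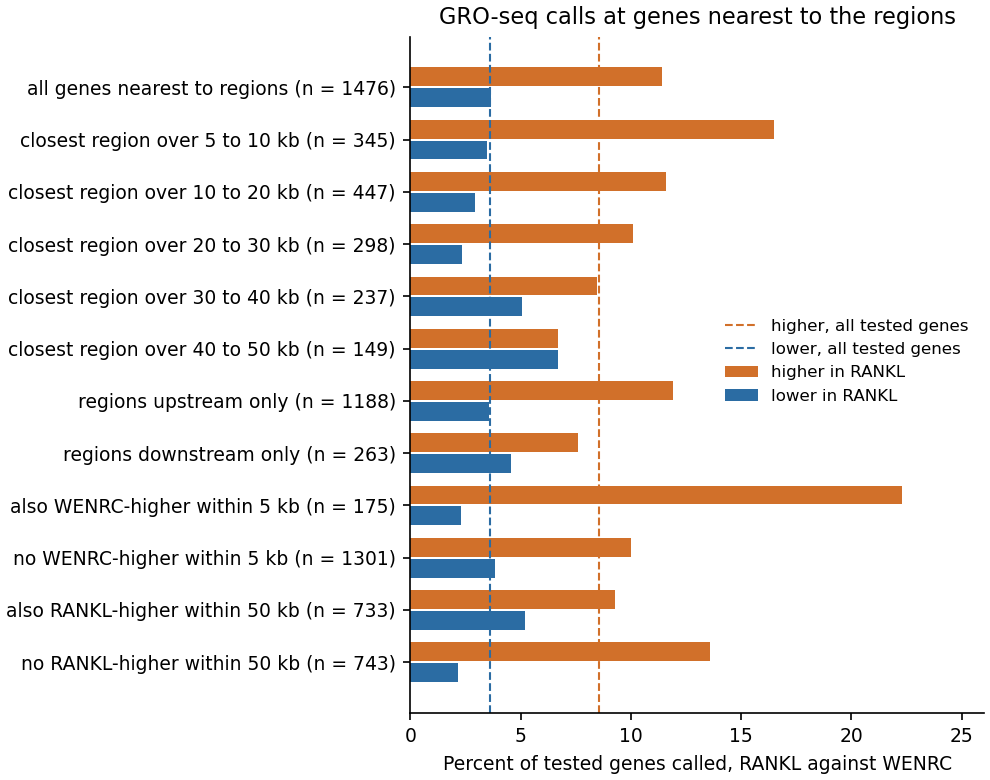
Percent of tested genes called higher (orange) or lower (blue) in RANKL than in WENRC (horizontal axis; limma, FDR under 0.05) for groups of genes nearest to the regions (vertical axis, with the number tested); dashed lines mark the percent over all 16563 tested genes, 8.53 and 3.62. The orange bars shorten from 16.5% within 10 kb to 6.71% beyond 40 kb, and the longest, 22.3%, belongs to genes with WENRC-higher H3K27me3 near the start site as well.

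The calls depended on the RANKL libraries. The reads of both RANKL libraries were combined with those of a repeat sequencing, per the file headers, so the culture and the sequencing batch cannot be told apart in RANKL against WENRC, and no value within a batch can be had. Without RANKL 1 or RANKL 2, limma called 0 of the nearest genes in either direction, while the unadjusted p was under 0.05 for 201 and 181 higher and for 90 and 85 lower genes. Without WENRC 1 or WENRC 2 it called 38 and 37 higher and 4 and 3 lower. With the 2 ENRI libraries left out of the fit it called 324 higher and 201 lower.

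Sox8, an SRY-related transcription factor and M cell marker, was at low values outside RANKL. Its values were 6.94 and 6.97 (RANKL), 2.56 and 3.23 (WENRC) and 2.57 and 2.83 (ENRI). The RANKL libraries stood apart from the other 4 without overlap. The fitted difference from WENRC was 4.06 (SE 0.26), but Sox8 passed the filter through the RANKL libraries alone and so had to differ, and its call is not support. Its region, chr17:25700953-25701453, lay 6.4 kb downstream of the start site with 23.4 against 9 tags, and 2 WENRC-higher regions lay within 5 kb of that start site and 3 RANKL-higher ones within 50 kb. Atoh8, a second M cell marker and a bHLH factor, had 3 of the regions, the closest 30.5 kb upstream, beside 3 WENRC-higher regions within 5 kb and 5 RANKL-higher ones within 50 kb, and values of 7.04 and 6.71 (RANKL), 5.4 and 5.62 (WENRC) and 4.38 and 4.92 (ENRI). It was 1.37 higher in RANKL than in WENRC (SE 0.26, limma FDR 0.0254), and its call was lost without either WENRC library (FDR 0.156 and 0.128).

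Of the 10 genes with the smallest p among those higher in RANKL, 3 had WENRC-higher H3K27me3 within 5 kb of their start, 1 had a RANKL-higher region there and 5 had one within 50 kb. Of all tested nearest genes, 11.9% had a WENRC-higher region within 5 kb and 49.7% a RANKL-higher one within 50 kb. No such share was worked out for RANKL-higher regions within 5 kb. Nfatc4, a calcineurin-dependent transcription factor, had 6.71 and 6.82 (RANKL), 2.82 and 3.26 (WENRC) and 2.65 and 2.88 (ENRI), a difference of 3.72 from WENRC (SE 0.22). Like Sox8 it passed the filter through RANKL alone, so its call is not support. Gjb2, which encodes the gap junction protein connexin 26, had 10.33 and 10.45 (RANKL), 7.78 and 7.51 (WENRC) and 6.41 and 6.43 (ENRI), a change of 2.75 (SE 0.16, limma FDR 0.00144). In both the RANKL values lay above those of all other libraries. Celsr1, a planar polarity cadherin, had 10.95 and 11.06 in RANKL against 8.32 and 8.33 in WENRC and 8.64 and 8.57 in ENRI (change over WENRC 2.68, SE 0.13, limma FDR 0.00123). Its neighbour on chromosome 15, Gramd4, had 12.04 and 12.16 against 9.4 and 9.45, and 9.61 and 9.9 in ENRI (change over WENRC 2.68, SE 0.15, limma FDR 0.00144). The start sites of this pair point away from each other across an intergenic stretch that held 4 of the regions, 2 assigned to each gene, the closest 6.0 kb upstream of Celsr1 (chr15:85869563-85870814) and 5.5 kb upstream of Gramd4 (chr15:85882330-85882957), so the 2 genes are not independent examples.

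The remaining genes of that group had RANKL highest too. C130074G19Rik had 10.92 and 10.98 (RANKL), 8.17 and 8.06 (WENRC) and 9.41 and 9.37 (ENRI), a change over WENRC of 2.84 (limma FDR 0.00123). Spon1, a secreted matrix protein, changed by 1.84, Clmn, which encodes an actin-binding protein, by 1.93, and the pseudogene Adh6-ps1 by 3.13, with limma FDRs of 0.00175, 0.00181 and 0.00166. For these and Nfkbia the lowest RANKL value exceeded the highest WENRC value, which the choice by p favours. None of the 10 calls was lost without a WENRC library. Without RANKL 1 or RANKL 2, Sox8 and Nfatc4 fell below the filter and the calls of the other 8 were lost, with limma FDRs from 0.0584 to 0.0626.

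NF-kB genes stood among the nearest genes with a rise. Of 12 NF-kB response genes 11 were tested, and 10 were higher in RANKL than in WENRC (9 with libraries recentred on upper quartiles) with 0 lower. A region was near 4 of them: Nfkbia, Nfkb1, Nfkb2 and Cxcl1. Nfkbia, the inhibitor that holds NF-kB in the cytoplasm and is itself an NF-kB target, had 2 regions, the closest 20.7 kb upstream (chr12:56614067-56614567) with 18.0 against 5 tags, and GRO-seq values of 11.28 and 11.32 (RANKL), 9.07 and 9.31 (WENRC) and 9.31 and 9.41 (ENRI). Its change over WENRC was 2.11 (SE 0.14, limma FDR 0.00175). Nfkb2, which encodes the p100 precursor of the non-canonical pathway, had 1 region 13.2 kb upstream (chr19:46365797-46366297; 27 against 11 tags) and values of 9.9 and 10.12 (RANKL), 7.57 and 7.75 (WENRC) and 8.46 and 8.25 (ENRI), which is 2.35 higher in RANKL than in WENRC (SE 0.16, limma FDR 0.00181). Another gene overlaps it. Nfkb1, which encodes the p105 precursor, changed by 1.27 from 10.83 and 10.72 to 12.05 and 12.03 (limma FDR 0.00554; 0.0555 without WENRC 2). Cxcl1, a neutrophil chemokine with a region 5.3 kb downstream, had 4.87 and 4.94 in RANKL and 5.32 and 4.96 in WENRC, RANKL being lower without overlap by a small margin that did not pass (limma FDR 0.725).

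The promoters of Nfkbia and Nfkb2 are printed because both genes rose and are known NF-kB targets. The table holds 1 promoter of Nfkbia and 3 of Nfkb2, and the one printed for Nfkb2 was chosen because it holds the most matches, after the sequences were seen. Each sequence runs from 250 bases before to 50 bases after the start site in RefSeq (GRCm38.p6), and capitals mark matches, on either strand, to the NF-kB motif searched: GGGA, any 2 bases, then TTCC. Of 32851 promoters of this length in the table, 482 (1.47%) hold a match, and a match is a description, not a binding site. Among nearest genes higher in RANKL the motif was found at 2 of the 128 with a promoter (1.56%) and among all genes higher in RANKL at 1.87%, but under 80% of either set have a promoter in the table, so no comparison can be drawn. The coordinates are chr12:55492598-55492897 on the minus strand and chr19:46305445-46305744 on the plus strand.
Nfkbia: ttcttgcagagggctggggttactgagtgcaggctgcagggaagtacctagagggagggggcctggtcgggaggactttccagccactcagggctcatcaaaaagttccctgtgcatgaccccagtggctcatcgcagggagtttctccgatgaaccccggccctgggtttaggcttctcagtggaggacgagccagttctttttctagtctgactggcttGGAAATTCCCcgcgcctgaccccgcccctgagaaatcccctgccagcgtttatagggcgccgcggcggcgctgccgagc
Nfkb2: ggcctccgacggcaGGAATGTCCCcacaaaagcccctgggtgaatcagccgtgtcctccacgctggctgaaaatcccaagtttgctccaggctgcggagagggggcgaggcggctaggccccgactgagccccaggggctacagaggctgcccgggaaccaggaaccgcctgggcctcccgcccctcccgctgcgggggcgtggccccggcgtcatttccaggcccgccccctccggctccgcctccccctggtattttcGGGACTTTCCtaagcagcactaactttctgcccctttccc

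Genes lower in RANKL included the stem cell gene Lgr5 and the Notch target Hes1. Of 16 stem cell markers, 3 had a region: Lgr5, Ascl2 and Sox9. The changes of Ascl2 and Sox9 from WENRC to RANKL, -0.21 and -0.09, did not pass (limma FDR 0.541 and 0.939). Lgr5, the R-spondin receptor that marks crypt stem cells, had 8.75 and 8.84 (RANKL), 11.64 and 11.99 (WENRC) and 8.89 and 8.51 (ENRI). WENRC stood above both other cultures without overlap, with a change from WENRC to RANKL of -3.02 (SE 0.19, limma FDR 0.00166). Its single region, chr10:115056120-115056620, lay 31.5 kb upstream with 21.6 against 8 tags, and the gene overlaps another one. A RANKL-higher region lay within 5 kb of its start site, as for 6 of the 10 genes lower in RANKL with the smallest p (Lgr5, Epb41l4a, Smpd3, Dact2, 2010300C02Rik and Fzd8). No share over all genes was set beside this count, and a link with transcription was not tested. Stc2, a secreted glycoprotein hormone, followed a like course with 8.13 and 8.4 (RANKL), 10.52 and 10.23 (WENRC) and 7.53 and 7.18 (ENRI), a change of -2.11 (SE 0.20, limma FDR 0.00391). Hes1, which represses secretory fate, had 7.06 and 7.3 (RANKL), 8.31 and 8.65 (WENRC) and 8.46 and 8.32 (ENRI). It fell by 1.31 (SE 0.19, limma FDR 0.0118), and its closest region lay 8.2 kb downstream with 24.3 against 5 tags.

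The other 7 genes of this group changed by less than Stc2. Nabp1, which encodes a single-stranded DNA binding protein, changed by -1.49 (limma FDR 0.00418), Epb41l4a by -1.59 (0.00606), Emp1, an epithelial membrane protein, by -1.50 (0.00727) and Smpd3, a neutral sphingomyelinase, by -1.45 (0.00825). Dact2, an antagonist of Wnt and TGF-beta signalling, changed by -1.15, 2010300C02Rik by -1.09 and the Wnt receptor gene Fzd8 by -1.21, with limma FDRs of 0.00825, 0.00969 and 0.0137. In each of the 10 both RANKL values lay below both WENRC values, which the choice by p favours. All 10 calls were lost without RANKL 1 or RANKL 2, 6 without WENRC 1 and 7 without WENRC 2.

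**Figure D5:**
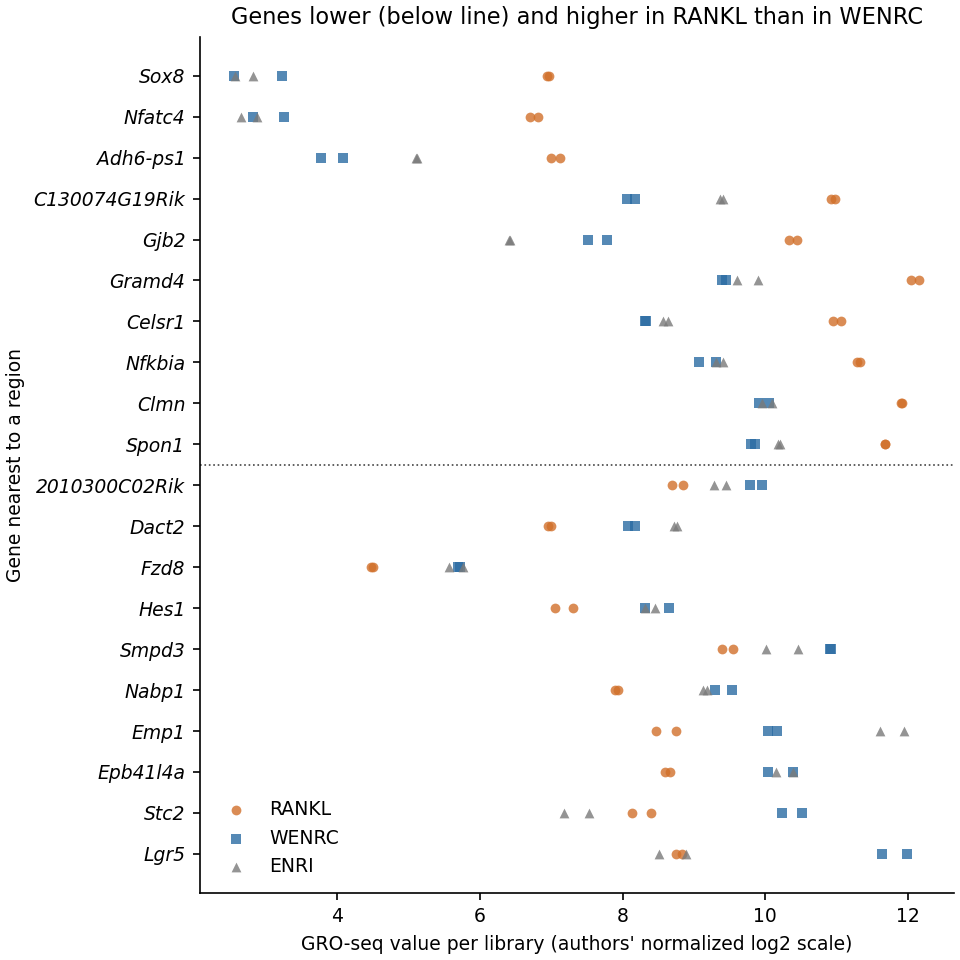
GRO-seq values of each library (horizontal axis, authors' normalized log2 scale) for the 10 genes with the smallest p among those higher (above the dotted line) and the 10 among those lower (below it) in RANKL than in WENRC, all nearest to a region (vertical axis). Circles are RANKL, squares WENRC and triangles ENRI, 2 libraries each. In all 20 genes the RANKL circles lie apart from the WENRC squares, which the choice by p favours, so it is no further result. Sox8 and Nfatc4 passed the filter through RANKL alone.

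A region was near 3 of 16 enterocyte, 2 of 8 goblet, 4 of 13 enteroendocrine, 1 of 7 tuft and 0 of 7 Paneth markers, where 9.73% of all genes had one. Gfi1b, a repressor found in tuft cells, had 5.37 and 5.46 (RANKL), 3.14 and 3.5 (WENRC) and 2.98 and 3.17 (ENRI), a change of 2.09 over WENRC (SE 0.20, limma FDR 0.00418) with a region 17.5 kb downstream. Outside RANKL only WENRC 2 reached the filter value, so Gfi1b was tested through RANKL and its call is not support. Slc2a2, the glucose transporter GLUT2 of enterocytes, had 10.94 and 11.0 (RANKL), 9.05 and 8.33 (WENRC) and 10.87 and 11.88 (ENRI), a change of 2.28 (SE 0.38, limma FDR 0.017; 0.0661 without WENRC 1 and 0.119 without WENRC 2). Fcgbp, a mucus protein of goblet cells, had 13.22 and 13.24 (RANKL), 11.49 and 10.21 (WENRC) and 13.29 and 12.62 (ENRI), a change of 2.38 (limma FDR 0.0234; 0.0883 without WENRC 2). In Slc2a2 and Fcgbp both WENRC values were the lowest, and RANKL and ENRI lay above them. Apob and Fabp1, which carry lipids in enterocytes, had changes of 0.70 and 0.27 between RANKL and WENRC that did not pass (limma FDR 0.146 and 0.775). Atoh1, the factor that starts secretory fate, had values from 3.77 to 4.25 in the 6 libraries (limma FDR 0.556) and 3 regions 23.2 to 40.8 kb upstream. Neurod1, Sst, Isl1 and Insm1 of the enteroendocrine list had 9 regions in all, and 3 of these 4 genes lay below the filter.

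No gene of the PRC2 and demethylase list was nearest to a region. All 13 passed the filter, 2 were higher in RANKL than in WENRC (1 with quantile normalization) and 0 lower, with a median change of 0.37.

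Of the 58 developmental transcription factor genes near the regions, with 81 regions among them, 40 (69%) lay below the filter on low values and 18 were tested. Of the whole list of 231 genes 116 (50.2%) lay below it, and of all nearest genes 35.1%. Among the 40, 9 were listed at 0 in every library. Foxf2, a mesenchymal forkhead factor with 6 regions (206.1 against 82 tags), had values from -1.5 to -1.47, and Foxi2 with 5 regions from -1.98 to -1.97. Pou4f3 with 4 regions was listed at 0 throughout. Of the 18 tested genes 3 were higher in RANKL than in WENRC and 1 lower, against 13 higher (11.3%) and 9 lower (7.83%) of the 115 tested genes of the list. One of these higher genes, Sox8, passed the filter through RANKL alone. Foxn3, a forkhead repressor, rose from 11.01 and 10.79 to 12.07 and 12.12 (change 1.20, SE 0.15, limma FDR 0.00805; 0.0507 without WENRC 1 and 0.0671 without WENRC 2). Foxo1, a forkhead factor restrained by insulin signalling, had 11.17 and 11.16 in RANKL and 10.65 and 10.43 in WENRC, a change of 0.63 (limma FDR 0.0394) that did not pass with quantile normalization (0.112). Klf9, a Kruppel-like repressor, fell by 1.43 from 8.53 and 8.7 to 7.17 and 7.2 (limma FDR 0.0137; 0.0856 without WENRC 1 and 0.112 without WENRC 2). Foxa2, with 4 regions of which 1 had a fold of 20.71, had 6.57 and 6.91 in RANKL against 6.63 and 6.65 in WENRC, values that overlapped (limma FDR 0.793).

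The genes with most regions differed in transcription. Lpl, with 6 regions, had 4.66 in both RANKL libraries, 3.16 and 3.55 in WENRC and 3.12 and 3.25 in ENRI, a change of 1.31 over WENRC (SE 0.20, limma FDR 0.014; 0.0916 without WENRC 1 and 0.0639 without WENRC 2). For Lpl, outside RANKL only WENRC 2 reached the filter value, so it was tested through RANKL and its call is not support. Slc39a8, with 11, had 9.06 and 9.24 in RANKL and 9.46 and 9.64 in WENRC (change -0.40, limma FDR 0.206). Edn2, with 10, had 6.73 and 6.49 against 5.88 and 5.39 (change 0.97, limma FDR 0.131), and 1810046K07Rik, with 8, had 7.97 in both RANKL libraries against 5.75 and 6.7 (change 1.75, limma FDR 0.0915). With only the RANKL and WENRC libraries in the fit, limma FDRs were 0.047 for Slc39a8 and 0.0155 for Edn2, and 1810046K07Rik passed as well. Lrig3, with 7, had 9.68 and 9.89 against 8.68 and 9.51 (limma FDR 0.319). Mir148a lay below the filter, with values from 0.5 to 0.64 in all 6 libraries, and Gm6559 had 4.62 and 4.44 in RANKL and 4.84 and 4.7 in WENRC (limma FDR 0.537). Of 19 tested genes with 5 or more regions, 6 were higher in RANKL and 0 lower, too few genes to read a share from.

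ENRI was measured for transcription alone. Of the 1476 tested nearest genes, 71 (4.81%) were higher in WENRC than in ENRI, where limma called 4.85% of all tested genes, and 130 (8.81%) were lower, where it called 9.74%. Both shares were near the background. They depended on the fit: with the mouse number as a block and only these 4 libraries, the calls were 4 and 17, without a block 0 and 0 (152 and 195 where the p is not adjusted, at 0.05), and with the replicate number as a block over all 6 libraries 43 and 96. With quantile normalization 150 were higher and 126 lower, against 9.86% and 9.2% of all genes. WENRC takes part in this comparison and in that with RANKL, so the 2 are not independent.

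The genes with the smallest p in WENRC against ENRI were Lgr5 and Stc2, higher in WENRC by 3.12 and 3.02 (limma FDR 0.00487 for each), and Hunk and 4930474M22Rik, higher by 2.70 and 2.55 (limma FDR 0.00487 and 0.00624). Hunk, a kinase gene with a region 34.2 kb upstream, had 11.29 and 11.39 (WENRC), 8.83 and 8.44 (ENRI) and 10.62 and 10.74 (RANKL). Among the genes lower in WENRC were a transporter and a gut peptide. Slc6a20a, an imino acid transporter gene with a region 5.2 kb upstream, measured 6.42 and 6.73 (WENRC), 11.44 and 12.84 (ENRI) and 12.3 and 12.37 (RANKL), a change of -5.57 against ENRI (SE 0.43, limma FDR 0.00624). Guca2b, which encodes the peptide uroguanylin, had 5.41 and 5.12 (WENRC), 8.82 and 9.6 (ENRI) and 9.22 and 9.37 (RANKL), a change of -3.94 (SE 0.28, limma FDR 0.00572), with a region 5.4 kb upstream that held 39.6 WENRC and 8 RANKL tags. In both, WENRC was the low culture and the RANKL values lay within the ENRI range. Cyp2d34 changed by -3.37 and Pxdc1 by -2.83 (limma FDR 0.00572 and 0.00624), and Pxdc1 had like values in RANKL (8.08 and 7.95) and WENRC (8.2 and 7.94). All 8 calls were lost without RANKL 1 or RANKL 2, which share the estimate of the spread, and without WENRC 2.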

How the data were processed

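The members and gene lists were chosen with earlier results of these data known. Bowtie2 (2.3.4.1), HOMER, DESeq2 and the build mm9 are named, without roles, in the submitters' processing notes. H3K27me3 regions were called by the authors with HOMER in 1 culture with the other as control, per the file headers; each deposited table holds 1 direction. RANKL tags are whole counts in the deposited RANKL table. WENRC tags are a signal that the authors scaled by 0.9, since 100.0% of 13492 deposited values under 90 lay within 0.01 tags of a multiple of 0.9. Folds are the ratio of those tags as deposited, and a p-value and a peak score of the authors stand beside them. GRO-seq values were deposited on a log2 scale: reads had been added up across entire RefSeq genes by the authors with HOMER, per the file headers. The transform is not named and its shape is that of a regularized logarithm.

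Each region was joined to the nearest gene named in its table, 3180 of 3261 regions having a GRO-seq row. limma 3.58.1 (R 4.3.3) was fitted to all 6 libraries with 3 group means, a variance trend and no replicate block, after a filter of 2 libraries at log2 of 10, with two-sided p-values adjusted by Benjamini-Hochberg. Where nothing says that libraries came from separate cultures, p-values measure only the spread between them. Mouse numbers pair ENRI with WENRC, per the labels, and the RANKL libraries carry no mouse number. Deviations between libraries 1 and 2 had an r over genes of 0.41 for WENRC with ENRI and -0.32 for RANKL with WENRC. Since the order of the RANKL libraries is tied to no mouse, the sign of the latter is arbitrary. The latter value therefore cannot settle whether RANKL and WENRC libraries pair. WENRC and ENRI pair by mouse number, and the main fit did not use that pairing. On simulated data the fit recovered 23.9%, 67.2% and 93.9% of genes changed by 1, 2 and 4 on the log2 scale, and 3.15% of its calls were false. The simulation changed 200 of 16563 genes and used independent noise of equal spread in all groups. It held no batch and no mouse pairing, so its false share does not carry over to the calls made here. Named genes were the 8 with most regions, the 10 higher and 10 lower in RANKL than in WENRC and the 4 in each direction in WENRC against ENRI with the smallest p, and list genes with a region; named regions were those with the highest folds, most tags and greatest length, those at the distance limits and the 5 largest groups, to which the 3 groups of 6 regions were added after their values were seen. Blank rows (12) were dropped.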

Additional observations from a re-analysis of the deposited data

How the results depend on the processing

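Counts of nearest genes moved with the fit, and the cause was not tested. In RANKL against WENRC, with 169 higher and 54 lower, only the 4 libraries compared gave 324 and 201 and the authors' deposited adjusted p gave 301 and 177. Quantile normalization gave 90 lower and recentring 105. In WENRC against ENRI, with 71 higher and 130 lower, only the 4 libraries compared gave 0 and 0, quantile normalization 150 higher and recentring 139 higher. Leaving out 1 library gave 0 to 322 and 0 to 200 in RANKL against WENRC and 0 to 310 and 0 to 264 in WENRC against ENRI. The replicate block gave 43 higher in WENRC than in ENRI and changed no other count by more than 1.5 times (142, 41 and 96), and the mouse block with only 4 libraries, added after seeing the data, gave 4 and 17.

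Narrower sets of genes gave smaller counts by construction. Regions with a fold of at least 4 left 61, 12, 19 and 36 genes (higher and lower in RANKL against WENRC, then in WENRC against ENRI), regions within 20 kb 109, 25, 35 and 62, genes with 2 or more regions 49, 10, 20 and 30, and genes without a RANKL-higher region 101, 16, 39 and 75. The median change of 0.03 became -0.0265 with quantile normalization, -0.0827 with recentring, 0.0698 at a fold of at least 4, 0.0749 with 2 or more regions, 0.0861 within 20 kb and 0.0861 without a RANKL-higher region, and it ran from -0.00378 to 0.056 without 1 library. A fold of at least 4 kept 826 regions. RANKL-higher regions lay near 902 regions, and 7, 0 or 2101 by an overlap of 1 bp, an overlap of 50% or 50 kb. Of 28 named calls, limma kept all 28 under both other scalings, 20 with only the 4 libraries compared, and 17 and 13 without WENRC 1 and WENRC 2; GRO-seq depth cannot be read from log2 values, and a single WENRC ChIP library limits the mark.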
